A study of Homo sapiens with 8 samples.

Results

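Cells of a single NALM6 line that carries an inducible wild-type HMGN1 gene were compared with and without doxycycline, and the RNA made during the treatment was read by SLAM-seq. NALM6 is a human leukaemia cell line of the precursor B-cell type. The comparison takes the 3 induced libraries (labelled WT_DOX, replicates A, B and C) against the 3 vehicle libraries (WT_CTL, A, B and C), which are 6 of the 8 libraries of the study. Induced cells received 100 ng/ml doxycycline for 6 h and vehicle cells received vehicle for the same time. Both groups were given 4-thiouridine at 100 µM over the last 5 h, and 4 µg of RNA entered the thiol modification. The other 2 libraries come from a line with the nucleosome binding-deficient HMGN1 S20,24E mutant, also induced. They entered the choice of transcript rows, the minimum levels and the estimate of spread, and not the group means compared. Doxycycline is present in the induced group alone, so effects of the drug and of the induced protein cannot be told apart in this comparison. The labels call the letters biological replicates without naming separate cultures, so p-values measure the spread between these libraries.

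HMGN1 is a small, abundant protein that binds nucleosomes, loosens chromatin compaction and competes with linker histone. Its gene lies on chromosome 21 in the stretch called the Down syndrome critical region. In SLAM-seq, 4-thiouridine is built into RNA made while it is present, and after chemical modification the labelled positions are read as T-to-C conversions. The 4 measures follow from the 2 deposited tables, each taken per gene from its transcript row with the highest mean. All reads are the deposited CPM. The conversion rate is the deposited conversion fraction, given here in percent and taken to be the share of T positions read as C. The sources used here do not define it, and the values of conversion and new RNA rest on that reading. New RNA is the product of CPM and conversion fraction. Converted reads are the FPKM of a separate table that holds only reads with conversions. No spike-in entered these values, so each is relative to its library. Of 27410 genes in the first table, 12454 passed the minimum level for all reads, 8723 for the conversion rate and 9652 for new RNA, and 5737 of 6992 genes in the second table passed for FPKM. Fold changes are log2 differences, induced minus vehicle. Groups are called apart where all 3 libraries of one group lie beyond all 3 of the other, in new RNA and conversion after each library's median was set to 0. If 3 and 3 libraries were labelled at random, a gene without ties would be apart in either direction with probability 0.1. Being apart is therefore a description and not a test, and the shares apart given below, over genes that share 6 libraries, are read beside that level.

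The libraries differed among themselves more than the groups did. Depth ran from 8.89 to 17.7 M reads with vehicle and from 7.99 to 14.4 M with doxycycline, of which 3.43 to 7.85 M lay in gene rows over all 8 libraries. In all reads the first principal component took 77.4% of the variance and set vehicle A (0.47) and induced B (0.21) against induced C (-0.43) and vehicle C (-0.16). It did not separate the groups in any of the 4 measures. The second component did so in all reads (9.39% of the variance), new RNA and FPKM, with induced B farthest out. Vehicle A held the lowest value of 53.9% of genes in all reads and of 50.5% in FPKM, and induced C held the highest of 56.8% and 52.8%. The median Spearman correlation between libraries, across genes, was 0.969 within groups and 0.979 between them in all reads, 0.928 and 0.941 in new RNA, 0.911 and 0.915 in the conversion rate and 0.790 and 0.782 in FPKM. The labelled cell type showed in the summed CPM of 24 pre-B receptor and recombination genes, 2375 to 2465 with vehicle and 2189 to 2410 with doxycycline, with none of them at 0. Of the 28 precursor B-cell transcription factors, 27 had a mean of at least 1 CPM. Erythroid and megakaryocyte markers summed to 0.85 to 1.48 CPM in all 6 libraries, with 6 of 12 at 0. T-cell markers summed to 43.2 to 64.5 with vehicle and 50.6 to 72.2 with doxycycline, with 3 of 12 at 1 CPM or more and 2 at 0. Myeloid markers summed to 423 to 517 and 365 to 441, with 3 of 13 at 1 CPM or more and 4 at 0. Fibroblast and epithelial markers were at 3.60 to 5.30 with vehicle and 5.77 to 8.26 with doxycycline, with 1 of 10 at 1 CPM or more and 2 at 0. These last sums did not overlap between the groups, and their part in the results was not tested. In such bulk libraries fewer cells of a type and less RNA per cell cannot be told apart.

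The induced gene was read first, because it checks the labels. HMGN1 has 31 processed pseudogenes in the GENCODE 29 annotation (GRCh38), copies of its spliced RNA scattered through the genome, and 2 of them lie inside genes described next. The first 90 of the 303 coding bases are shown to let the copies be compared, with differences from HMGN1 in capitals and positions counted from 1 at the start of the coding sequence.
HMGN1: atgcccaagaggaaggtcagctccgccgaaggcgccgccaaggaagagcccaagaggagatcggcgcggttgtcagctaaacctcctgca
HMGN1P4: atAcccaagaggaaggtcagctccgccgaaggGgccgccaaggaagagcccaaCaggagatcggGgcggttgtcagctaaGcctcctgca
HMGN1P36: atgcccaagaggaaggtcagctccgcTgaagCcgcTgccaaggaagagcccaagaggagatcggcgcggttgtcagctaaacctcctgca
HMGN1 itself lies at chr21:39342315-39349647 on the minus strand. HMGN1P4 lies at chr1:182942115-182942404 inside C1orf14, on the same strand as that gene, and differs in this stretch by G3A, C33G, G54C, C65G and A81G. HMGN1P36 lies at chr2:97827248-97827545 inside TMEM131, on the opposite strand, and differs by C27T, G32C and C36T. Over the whole aligned coding sequence HMGN1P4 is 95.5% and HMGN1P36 is 97.0% identical to HMGN1. How reads that fit more than 1 copy were placed is not given in the sources used here, so HMGN1 and both host genes are uncertain to that extent.

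In 3 of the 4 measures all induced libraries held more HMGN1 than any vehicle library. In all reads it stood at 191, 153 and 145 CPM in vehicle A, B and C and at 252, 217 and 317 in induced A, B and C (log2 fold change 0.67, SE 0.20, limma adjusted p = 0.991). Its conversion rate was 1.04, 1.66 and 1.69% with vehicle and 4.09, 3.24 and 7.12% with doxycycline (1.25, SE 0.22, limma adjusted p = 0.759). The groups did not overlap in either measure, and induced C was the highest and induced B the lowest of the induced libraries in both. Multiplied together, these gave new RNA of 1.98, 2.55 and 2.46 against 10.3, 7.02 and 22.6, a log2 fold change of 2.04 (SE 0.28), which did not pass in the fit over all 8 libraries (limma adjusted p = 0.0687). Fits with the letter as a block (0.0281), on the 6 libraries alone (0.0301), with a pseudocount of 0.5 (0.0477) or with the spread as a trend on the mean level (0.0403) put HMGN1 past the 0.05 level. It was at 0.164 to 0.444 without any single one of the 6 libraries and at 0.986 without centring. The exact two-sided permutation test gave p = 0.1 in each of these 3 measures, the smallest that 3 against 3 libraries allow. In converted-read FPKM the groups overlapped, at 2.64, 6.04 and 5.44 with vehicle and 7.75, 5.39 and 4.94 with doxycycline (0.34, SE 0.36, limma adjusted p = 0.823). The order of the induced libraries was different there, with A the highest and C the lowest, and with library medians centred the FPKM fold change was -0.00136.

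C1orf14, also named SHCBP1L, was the 1 gene of 9652 that passed in new RNA (0.0104% of genes tested). Its new RNA rose by 4.08 on the log2 scale (SE 0.36, limma adjusted p = 0.00132), from 0.0658, 0.408 and 0.290 with vehicle to 6.11, 3.15 and 13.1 with doxycycline. All reads held 13.6, 12.5 and 14.3 CPM against 62.6, 45.0 and 103 (2.22), and the conversion rate 0.483, 3.26 and 2.04% against 9.76, 7.01 and 12.7% (2.11). Both components were thus higher in each induced library, in the same order C, A, B as for HMGN1. In converted-read FPKM C1orf14 was listed at 0 in all 6 libraries. Without centring its adjusted p was 0.0534.

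TMEM131, a membrane protein gene, had more reads in each induced library than in any vehicle library, and a lower mean conversion rate with doxycycline. It had 8.10, 11.1 and 11.4 CPM with vehicle and 36.0, 27.7 and 70.4 with doxycycline (1.93, SE 0.34, limma adjusted p = 0.991). Its conversion rate was 3.67, 4.94 and 6.60% against 3.65, 3.64 and 4.00% (-0.49), with the induced libraries lower once medians were centred. New RNA was 0.297, 0.549 and 0.751 against 1.31, 1.01 and 2.82 (1.21, limma adjusted p = 0.305), and FPKM was 0, 2.85 and 2.63 against 3.55, 4.88 and 8.60. On read counts recovered from the CPM steps, edgeR's quasi-likelihood test and DESeq2 each called 2 of 13382 genes, which were C1orf14 (adjusted p = 0.0437 and 2.18e-10) and TMEM131 (0.0437 and 4.86e-09).

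The other tested genes that hold an HMGN1 pseudogene overlapped between the groups in all reads. Of the 31 pseudogenes, 18 lay inside a gene of the table, and 14 host genes passed the minimum in all reads, 7 with the copy on the same strand and 7 on the opposite strand. The groups were apart and higher with doxycycline in 2 of these 14, C1orf14 and TMEM131, and lower in 0, against 2.51% and 1.53% of all genes tested. The set of hosts was not planned and was drawn up with the values of C1orf14 and TMEM131 known. Their count among the 14 is therefore no separate support. MPP1, a membrane palmitoylated scaffold gene whose copy HMGN1P37 is on the same strand and 96.4% identical, stood at 35.4, 39.7 and 38.8 CPM with vehicle and 33.2, 36.6 and 34.5 with doxycycline. Its groups overlapped in all reads. FAM174B holds the most alike copy, HMGN1P38, 98.3% identical on the opposite strand, and ran from 0.347 to 0.845 CPM with vehicle and from 0.580 to 0.877 with doxycycline, below the minimum for a test. ACTN1, an actin crosslinker whose copy HMGN1P3 is 93.7% identical, ran from 10.1 to 24.1 CPM against 17.8 to 30.6 and overlapped. In conversion MPP1 (0.18), STAG1 (0.20) and PDCD10 (0.24) were apart and higher only after centring, beside 4.59% of all genes (limma adjusted p = 0.948 each). In new RNA C5orf13 was apart and lower after centring (-0.25), beside 3.67% of all genes. In FPKM SFRS15 was apart and higher (0.83), beside 10.7% of all genes.

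PGK1, a glycolytic kinase gene, had the next smallest p in new RNA after C1orf14, HMGN1 and TMEM131, and its groups overlapped in reads. All reads were 504, 530 and 464 CPM with vehicle and 536, 529 and 557 with doxycycline (0.12). Its conversion rate was 0.483, 0.762 and 1.05% against 1.77, 1.24 and 2.72% (0.77, SE 0.17, limma adjusted p = 0.948). Every induced library lay above every vehicle library in conversion, again in the order C, A, B. New RNA was 2.43, 4.04 and 4.90 against 9.50, 6.57 and 15.1 (1.15, SE 0.21, limma adjusted p = 0.319), while FPKM was 1.54, 3.77 and 2.97 against 2.42, 1.99 and 1.98 and overlapped. The remaining 17 tested members of the glycolysis list lay between -0.30 and 0.36 in new RNA.

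**Figure D1:**
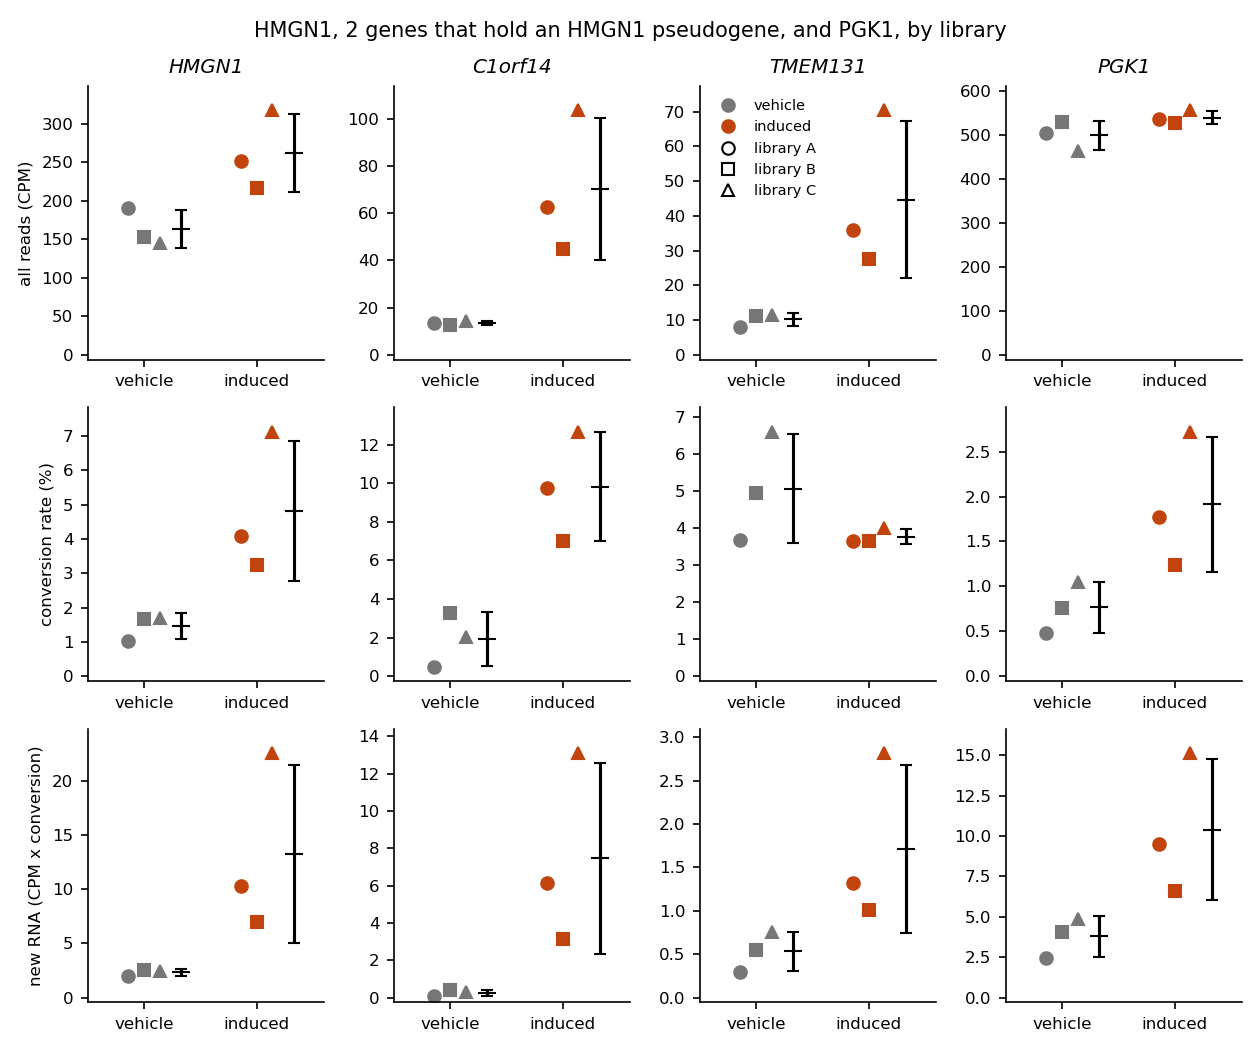
CPM, conversion rate in percent and new RNA of HMGN1, C1orf14, TMEM131 and PGK1 in the 3 vehicle (grey) and 3 induced (orange) libraries, with shape giving the replicate letter and black bars the mean ± SD (n = 3). Induced C is the highest induced library in every panel, and the TMEM131 conversion rate and PGK1 CPM are the panels in which the groups do not stand apart upwards.

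Over whole libraries, converted RNA was higher on average with doxycycline, by less than the libraries differed among themselves. The median conversion rate over the 8723 genes was 4.93, 5.84 and 6.73% in vehicle A, B and C and 6.68, 5.40 and 7.32% in induced A, B and C. The groups overlapped, with means of 5.83% ± 0.90 and 6.47% ± 0.98 (SD, n = 3 each, exact permutation p = 0.5). The lower quartile over genes was 3.71% and 4.27% on average (exact permutation p = 0.5) and the upper quartile 7.57% and 8.21% (exact permutation p = 0.4), differences of 0.56 and 0.64 percentage points. The difference in the median, 0.63 percentage points, was 0.18 without vehicle A, 0.21 without induced C, 1.08 without vehicle C and 1.17 without induced B. Median new RNA was 0.533, 0.841 and 1.06 with vehicle and 0.993, 0.655 and 1.32 with doxycycline, in the same library order as the conversion rate. Tested genes listed at 0 FPKM numbered 675, 53 and 3 in vehicle A, B and C and 9, 242 and 3 in induced A, B and C. Both low-conversion libraries, vehicle A and induced B, held the most zeros. They were also the shallowest of the 6 libraries, at 8.89 and 7.99 M reads, and the part of depth in these values was not tested. The summed FPKM was 28206, 34171 and 35726 against 35061, 35878 and 44733 (exact permutation p = 0.2 on log2 sums). The groups overlapped, with induced A below vehicle C. The CPM-weighted mean conversion rate averaged 3.60% with vehicle and 4.32% with doxycycline and overlapped (exact permutation p = 0.5).

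**Figure D2:**
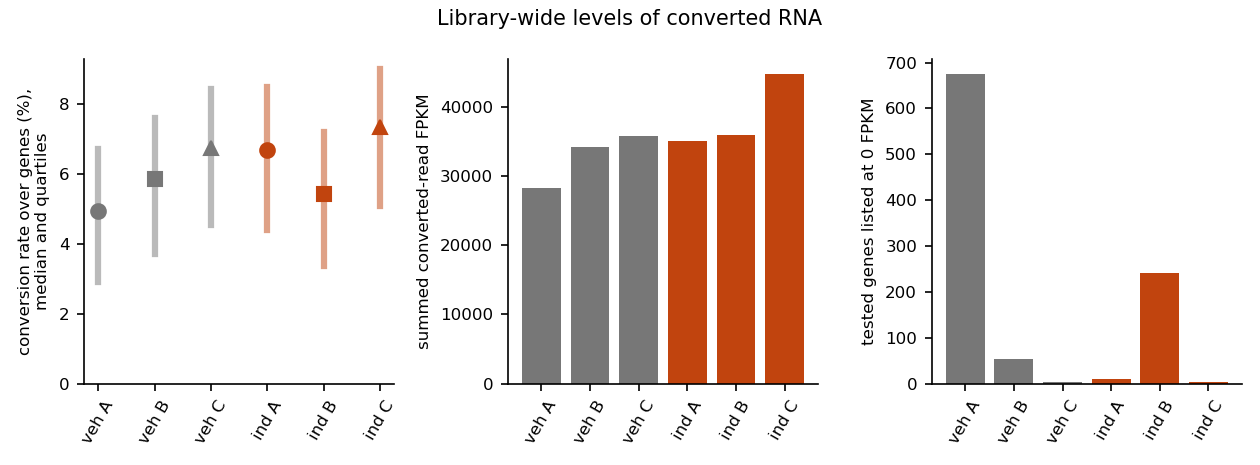
Median and quartiles of the conversion rate over genes in percent (left), summed converted-read FPKM (middle) and tested genes listed at 0 FPKM (right) in each vehicle (grey) and induced (orange) library. Vehicle A and induced B are the lowest of their groups in conversion, at 4.93% and 5.40%, and hold 675 and 242 genes at 0.

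Of 12454 genes tested in all reads, 0 passed by limma (0%) and 146 had an unadjusted p under 0.05. The groups were apart for 313 genes higher with doxycycline (2.51%) and 190 lower (1.53%), 4.04% in either direction. Beside C1orf14 and TMEM131, the smallest p among higher genes belonged to ARHGAP24, a Rac-directed GTPase-activating protein gene, at 0.787, 0.781 and 1.18 CPM with vehicle and 1.88, 2.63 and 2.54 with doxycycline (0.80, SE 0.18). The groups stood apart at this low level. NRIP2, a nuclear receptor-interacting protein gene, held 0.450, 0.695 and 0.845 CPM against 1.95, 1.50 and 2.68 (0.86), also apart. Of the lower genes, the p38 kinase gene MAPK11 was at 2.02, 2.0 and 1.18 CPM against 1.04, 0.626 and 1.01 (-0.52). TYMP, the thymidine phosphorylase gene, was at 4.27, 2.60 and 2.82 against 2.09, 1.63 and 1.59 (-0.60), STRADB, a pseudokinase gene, at a log2 fold change of -0.52 and CHPT1, a choline phosphotransferase gene, at -0.45. All had a limma adjusted p of 0.991. The median log2 fold change over all genes was 0.09, and -0.04 with library medians centred, which put 470 genes apart and higher and 320 lower.

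Of 8723 genes tested in the conversion rate, 0 passed by limma (0%) and 386 had an unadjusted p under 0.05. The groups were apart for 400 genes higher (4.59%) and 416 lower (4.77%), 9.35% in either direction. Without centring these counts were 407 and 40, because the median of all genes then lay at 0.13 and 83.9% of genes were above 0. The smallest p belonged to LOC101930071, at 1.90, 2.45 and 3.75% with vehicle and 5.89, 4.93 and 7.26% with doxycycline (0.91, SE 0.14, limma adjusted p = 0.647). All its induced libraries were above its vehicle libraries, as they were in all reads (0.35). HMGN1, C1orf14, PGK1 and the antisense RNA LIPE-AS1 (0.50, SE 0.10) followed. LIPE-AS1 went from 2.79, 3.36 and 4.74% to 5.93, 4.78 and 6.93%, with its groups apart.

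Among genes with a lower conversion rate, SNORA105B, a small nucleolar RNA gene, stood at 2.36, 3.04 and 3.27% with vehicle and 1.94, 0.790 and 1.22% with doxycycline (-1.08, SE 0.21, limma adjusted p = 0.948). Its groups were apart as deposited and after centring, while its reads overlapped (-0.27). DEGS1, a dihydroceramide desaturase gene, went from 7.50, 6.81 and 9.14% to 6.63, 4.87 and 6.23% (-0.52, SE 0.11), with every induced library below every vehicle library. PBK, a mitotic kinase gene, was at 6.01, 7.67 and 6.92% against 5.53, 4.72 and 5.78% (-0.47, SE 0.10), likewise apart. LOC100652768 (-0.72) and TMEM126A, a mitochondrial membrane protein gene (-0.58), completed the 5 smallest p. For these 5 lower genes the all-read fold change was between -0.27 and 0.23, and their reads overlapped between the groups.

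In new RNA the groups were apart for 422 genes higher (4.37%) and 354 lower (3.67%), 8.04% in either direction, with 318 at an unadjusted p under 0.05. Without centring the counts were 198 higher and 31 lower, because the median of all genes moved from -0.04 to 0.22. Next to the genes above, the smallest p among lower genes belonged to IL27RA, an interleukin receptor gene, at 0.379, 0.531 and 0.584 with vehicle and 0.406, 0.209 and 0.362 with doxycycline (-0.76, SE 0.19, limma adjusted p = 0.982). As computed, the groups overlapped through induced A, and after centring they were apart. IRX1, a homeobox gene, went from 0.810, 1.19 and 1.44 to 0.922, 0.613 and 1.20 (-0.57, SE 0.16), apart only after centring. The host RNA SNHG21 (-0.69), LOC494127 (-0.71) and LOC100306951 (-0.67) were the others, each at a limma adjusted p of 0.982.

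Of 5737 genes tested in converted-read FPKM, 0 passed by limma (0%) and 419 (7.3%) had an unadjusted p under 0.05. The groups were apart for 614 genes higher (10.7%) and 72 lower (1.26%). The direction of this split followed the scaling: with library medians centred the groups were apart for 281 genes higher and 483 lower, and the median of all genes was -0.11 in place of 0.23. ADCY9, an adenylyl cyclase gene, stood at 0, 0.31 and 1.05 FPKM with vehicle and 2.22, 3.41 and 5.53 with doxycycline (1.70, SE 0.38, limma adjusted p = 0.531). Its FPKM groups were apart, while its conversion rate (-0.10) and new RNA (0.06) overlapped. MECOM was listed at 0 FPKM in all vehicle libraries and at 4.89, 5.85 and 2.87 with doxycycline, yet its conversion rate was 0.635, 0.743 and 1.08% against 0.984, 0.678 and 1.12% and overlapped.

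Lower in FPKM with the smallest p were MAGI1, a junctional scaffold gene, at 6.81, 4.76 and 4.55 with vehicle and 3.11, 0 and 2.25 with doxycycline, and GAMT, of creatine synthesis, at 3.13, 3.17 and 2.10 against 2.01, 0 and 0.82. Both sets of libraries were apart, and induced B was listed at 0 in each. C17orf37 was at 1.59, 1.58 and 1.76 against 0.89, 0.48 and 0.41 (-0.74), also apart. The groups of COX7A2 (-0.88), of respiratory complex IV, and ZNF286B (-1.27) overlapped. New RNA was tested for 4 of these 5, with fold changes from -0.47 (C17orf37) to -0.29 (COX7A2) and overlapping groups, and their limma adjusted p in FPKM was 0.618 to 0.626.

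The 2 tables shared part of their pattern across genes. Over 5702 genes tested in both, the log2 fold changes of new RNA and of FPKM had a Spearman correlation of 0.49, and those of all reads and FPKM 0.46. Conversion and FPKM gave 0.14, and all reads and conversion -0.05 over 8723 genes. New RNA shares its factors with all reads (0.75) and with conversion (0.55) by construction. Genes are not independent replicates, the tables come from the same libraries, and all measures carry the order of libraries described above. Within a library, the levels of FPKM and new RNA correlated across genes at 0.39 to 0.42 in the 6 libraries. Conversion and CPM correlated at -0.30 to -0.47, abundant genes having the lower rate. EEF1A1, the translation elongation factor gene, had 6811 to 9840 CPM and a conversion rate of 0.535 to 1.26%, but 0.21 to 2.46 FPKM. TUBB, a beta tubulin gene, had 1452 to 1783 CPM at 2.65 to 5.15% conversion and was listed at 0 FPKM in every library. Of 708 genes with a mean of at least 100 CPM, 624 had a row in the converted table, and 20 of these were listed at 0 in all 6 libraries.

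Groups were apart in the same direction in both tables for 94 genes higher, which is 33.7% of the 279 genes higher in new RNA and 15.4% of the 612 higher in FPKM. They were apart and lower in both for 5 genes, 3.33% of 150 and 7.04% of 71. The reverse pair, higher in new RNA and lower in FPKM, held for 0 genes, and lower in new RNA with higher FPKM for 5. These counts set centred new RNA against FPKM as deposited. Over all 5737 genes tested, FPKM with medians centred was apart and higher for 281 genes and lower for 483. The counts in both tables were not taken on that scale. ARFGEF2, an exchange factor for ARF GTPases, had 0, 0.63 and 2.10 FPKM with vehicle and 3.56, 7.31 and 6.55 with doxycycline (1.94, SE 0.42), and new RNA of 0.191, 0.474 and 0.776 against 0.798, 0.568 and 1.77 (0.72, SE 0.24). Its FPKM groups were apart as deposited, and its new RNA groups after centring. SSBP3, a LIM-domain cofactor partner, was apart in all 4 measures without centring. It went from 5.62, 9.38 and 10.1 to 11.0, 10.9 and 13.3 CPM, from 4.50, 5.35 and 6.03% to 6.98, 7.48 and 9.18% conversion, from 0.253, 0.502 and 0.611 to 0.767, 0.815 and 1.22 in new RNA and from 0, 1.90 and 3.15 to 4.67, 8.29 and 7.18 FPKM. Fold changes were 0.47, 0.39, 0.68 and 1.72 in that order.

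Other concordant genes with large changes were SPRED2, a brake on Ras signalling (0.81 in new RNA, 1.61 in FPKM), FGF18, a growth factor gene (0.78, 1.54), RAPGEF6, a Rap exchange factor gene (0.71, 1.53), MEGF6 (0.69, 1.57) and TMEM131. SPRED2, FGF18, RAPGEF6 and MEGF6 were each listed at 0 FPKM in vehicle A, and induced C was their highest library in new RNA. MEGF6 had conversion rates of 1.83, 4.43 and 5.64% with vehicle and 6.67, 6.59 and 7.15% with doxycycline, its groups apart. The 5 genes lower in both were SLC39A8, a zinc and manganese transporter (-0.50 in new RNA, -0.72 in FPKM), ARPP21, a brain-enriched phosphoprotein gene also found in precursor B cells (-0.45, -0.42), ESAM, a cell adhesion molecule gene (-0.34, -0.34), STK16, a kinase gene (-0.28, -0.77) and MRPL43 of the mitochondrial ribosome (-0.18, -0.35). SLC39A8 was at 23.6, 10.2 and 11.0 FPKM with vehicle and 10.0, 5.85 and 8.80 with doxycycline, with induced A just under vehicle B. Opposite differences were read with new RNA centred and FPKM as deposited, where the medians of all genes were -0.04 and 0.23. On these unlike scales NDUFAF4, a complex I assembly factor gene, had -0.48 in new RNA and 0.52 in FPKM. EIF2S1, the translation initiation factor, had -0.26 and 0.49. None of the genes in this paragraph passed, with limma adjusted p from 0.618 to 0.785 in FPKM, and without centring MRPL43 turned to 0.08 in new RNA.

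**Figure D3:**
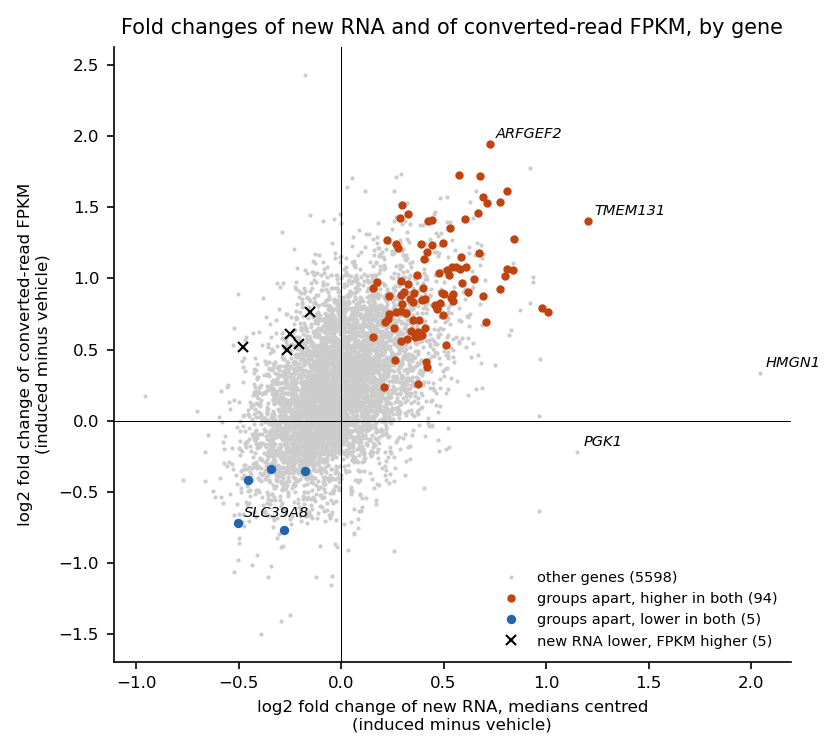
Log2 fold change, induced minus vehicle, of new RNA (horizontal, library medians set to 0) and of converted-read FPKM (vertical, as deposited) for the 5702 genes tested in both. Genes whose groups are apart and higher in both (94, orange) fill the upper right, 5 are lower in both (blue), and HMGN1 and PGK1 lie far right with FPKM fold changes of 0.34 and -0.22.

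The gene lists described next held 0 called genes in all 4 measures. Each list's median is read against that of all genes, 0.09 in all reads, -0.00 in conversion, -0.04 in new RNA and 0.23 in FPKM. With the other centring these were -0.04, 0.13, 0.22 and -0.11, and list medians moved by as much. Genes of the ribosome and of respiration had all-read fold changes below 0. All 77 ribosomal protein genes had a fold change below 0 in all reads, with a median of -0.24 beside 0.09 for all genes, and 76 of 77 in new RNA (median -0.26 beside -0.04, and -0.01 beside 0.22 without centring). Their groups overlapped in 76 of 77 genes in all reads and were apart and lower in 1, beside 1.53% of all genes. By library their median deviation from the gene's vehicle mean was 0.30, -0.09 and -0.23 in vehicle A, B and C and -0.12, -0.07 and -0.54 in induced A, B and C. Vehicle A and induced C were the 2 extremes. Without vehicle A the list's median stood 0.05 below that of all genes and without induced C 0.09 below, in place of 0.34. In new RNA these were 0.02 and 0.03, in place of 0.23. RPS29 of the small subunit held 116, 87.4 and 81.8 CPM against 87.0, 68.4 and 64.3 (-0.37), overlapping. The conversion rate of this list had a median of 0.04, with 58 of 76 genes above 0.

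The 76 nuclear-encoded respiratory chain genes repeated this order. In all reads 71 were below 0 (median -0.21), in new RNA 71 of 75 (-0.19), and by library their deviations were 0.29, -0.14 and -0.15 against -0.09, -0.09 and -0.43. ATP5A1, the ATP synthase alpha subunit, was apart in all reads, at 354, 338 and 306 CPM with vehicle and 300, 286 and 284 with doxycycline (-0.20, SE 0.16). It was 1 of 4 members of the 76 apart and lower, beside 1.53% of all genes. The 76 mitochondrial ribosome genes had medians of -0.09 in all reads and -0.19 in new RNA, with 53 and 65 below 0, and 6 of 76 were apart and lower in new RNA beside 3.67% of all genes, MRPS35 (-0.50) and MRPL42 (-0.34) among them. Without centring the new RNA medians of the respiratory and mitochondrial ribosome lists were 0.06 each, below the 0.22 of all genes. Without vehicle A the respiratory list stood 0.02 below all genes in all reads, in place of 0.31, and without induced C 0.09 below. In new RNA it stood 0.01 above all genes without vehicle A, with 40 of 75 members below 0, and 0.01 below without induced C. The mitochondrial ribosome list stood 0.02 below all genes in all reads without vehicle A, in place of 0.19. In new RNA it stood 0.03 below without vehicle A and without induced C, in place of 0.16, with 46 of 76 members below 0 in each case.

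Lists of lineage and chromatin genes differed in direction with all libraries, while without vehicle A their all-read medians lay below 0. In all reads 13 of 23 pre-B receptor and recombination genes and 7 of 11 linker and variant histones were below 0. Without vehicle A these were 20 of 23 (median -0.12) and 9 of 11 (-0.10), beside a median of -0.04 for all genes. With library medians centred they were 18 of 23 and 10 of 11. Of 27 precursor B-cell transcription factors tested, 23 were above 0 in all reads (median 0.19), where 67.6% of all genes were above 0. Without vehicle A their all-read median was -0.05 with 15 of 27 below 0, and without induced C it was 0.01 with 14 of 26 above 0. In FPKM 18 of 22 were above 0 (median 0.41 beside 0.23, and 0.07 beside -0.11 centred), with 4 of 22 apart and higher and 0 lower, beside 10.7% and 1.26% of all genes. Without induced C the FPKM median stood 0.09 above all genes, in place of 0.18. PAX5, which sets B-cell identity, was at 13.1, 28.6 and 26.4 FPKM with vehicle and 32.0, 57.5 and 67.9 with doxycycline (1.18, SE 0.41, limma adjusted p = 0.618), apart, while its reads ranged from 35.5 CPM in vehicle A to 199 in induced C and overlapped. FOXO1, a factor of early B-cell stages, was at 3.13, 3.17 and 3.50 FPKM against 6.23, 4.87 and 10.7 (0.89), also apart. BACH2, a repressor in B cells, had 13.1, 15.5 and 20.7 against 22.0, 19.5 and 33.2 FPKM and overlapped, although its conversion rate was apart after centring (0.16). ERG went the other way, with -0.20 in conversion and -0.30 in new RNA, both apart and lower after centring. In this list vehicle A (-0.50) and induced C (0.65) again held the lowest and highest deviations in all reads.

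Of 23 genes for histone acetylation and bromodomain proteins, 20 were above 0 in all reads (median 0.24), but 10 without vehicle A (-0.02) and 10 without induced C (-0.01). In FPKM 13 of 18 were above 0 (0.27, or -0.07 with medians centred), close to the 73.0% of all genes, and 3 were apart and higher beside 10.7% of all genes. MYST4, the acetyltransferase gene also called KAT6B, had 0.52, 0 and 1.05 FPKM against 1.33, 3.41 and 4.50 (1.39, SE 0.40), and the deacetylase gene HDAC3 had 1.03, 3.49 and 0.87 against 3.54, 4.37 and 4.31 (0.97). Both were apart. Mitosis genes were above 0 in all reads in 21 of 27 (median 0.22), and this turned without vehicle A (-0.07, 22 of 27 below 0) and without induced C (-0.05, 20 of 27 below 0). Their FPKM median of 0.11 lay under that of all genes. Their conversion rate was below 0 in 22 of 25 (median -0.09 beside -0.00 for all genes, and 0.04 beside 0.13 without centring). KIF11, the spindle kinesin, had 0.52, 0.64 and 0.88 FPKM against 1.56, 0.98 and 3.07, apart, with a conversion fold change of -0.13. The p53 targets were above 0 in 20 of 22 in all reads and 14 of 16 in FPKM (median 0.40), and with medians centred in 15 of 22 and 10 of 16. Without vehicle A the all-read count was 14 of 22, and without induced C 12 of 22. In conversion 14 of 19 were below 0, 3 of them apart and lower beside 4.77% of all genes. Without centring 16 of 19 were above 0 (median 0.08 beside 0.13 for all genes). The centred median stood 0.05 below all genes, 0.02 below without vehicle A and 0.09 below without vehicle C. ZMAT3, an RNA-binding p53 target, had 1.04, 0.32 and 1.05 FPKM against 1.34, 2.43 and 3.29, apart.

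In other lists the medians given next for conversion or new RNA lay below 0 after centring and above 0 without it. With library medians centred, all reads lay below 0 as well, in 16 of 21 immediate early genes. The same held for 16 of 16 heat shock chaperones and 17 of 22 cholesterol genes. Immediate early genes had 14 of 16 conversion rates below 0 (median -0.07, or 0.07 without centring), 4 apart and lower beside 4.77% of all genes, and JUNB, an AP-1 subunit, went from 9.08, 10.5 and 11.5% to 10.4, 8.60 and 11.5%, apart only after centring (-0.17). The list's conversion median stood 0.06 below all genes, 0.04 below without induced C or vehicle B and 0.11 below without vehicle C. Heat shock chaperones were below 0 in new RNA in 14 of 14 (median -0.14, or 0.11 without centring). Of them 2 were apart and lower, beside 3.67% of all genes. In all reads 7 of 16 were above 0 as deposited, and 0 with medians centred. HSPA4, an HSP70-family exchange factor, had -0.32 in new RNA and 0.09 in all reads. For cholesterol synthesis and uptake, 17 of 22 were below 0 in new RNA (median -0.22, or 0.03 without centring), and 4 of 19 were apart and lower in conversion beside 4.77% of all genes. In new RNA this list stood 0.18 below all genes, 0.05 below without vehicle A, 0.07 without induced C and 0.27 without vehicle B. SC4MOL, a sterol methyl oxidase gene, had conversion rates of 10.5, 8.43 and 8.16% with vehicle and 7.75, 5.73 and 6.83% with doxycycline (-0.53, SE 0.22, limma adjusted p = 0.948). Its groups were apart without centring. INSIG1, which holds the sterol-sensing complex in the endoplasmic reticulum, was apart and lower in new RNA after centring (-0.37), and SREBF2, the transcription factor of this pathway, was apart and higher (0.32).

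Other genes of the Down syndrome critical region lay on both sides of 0. In all reads 11 of 17 tested were above 0 (median 0.08), in new RNA 6 of 16 (-0.06), and in FPKM 5 of 9 (0.13). DYRK1A, a kinase gene of that region, was apart and higher in 3 measures: FPKM went from 0, 0.64 and 0.53 to 1.33, 2.44 and 1.85 (1.06, SE 0.35), conversion from 6.31, 7.21 and 8.29% to 8.64, 8.45 and 10.1% (0.17), and new RNA from 0.490, 0.976 and 1.24 to 1.19, 1.04 and 2.78 (0.52), the last after centring. DOPEY2 had the largest conversion difference of the list, 1.31, 2.21 and 2.06% with vehicle and 3.26, 4.32 and 5.50% with doxycycline (0.90, SE 0.21, limma adjusted p = 0.948). All its induced libraries were higher in conversion and in FPKM (1.24), whereas its reads were lower, 16.5, 13.9 and 13.4 CPM against 11.3, 8.52 and 13.3 (-0.39), with induced C just under vehicle C. WRB was apart and lower in new RNA after centring (-0.69) and in all reads (-0.28). Of the 8 other HMG chromatin proteins tested, 7 were below 0 in all reads (median -0.09), all 8 with medians centred. HMGN2, a related nucleosome-binding protein gene, held 152, 167 and 153 CPM against 155, 143 and 145 (-0.09), with a conversion rate of 1.52 to 2.47% and 1.67 to 2.42%, both overlapping.

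**Figure D4:**
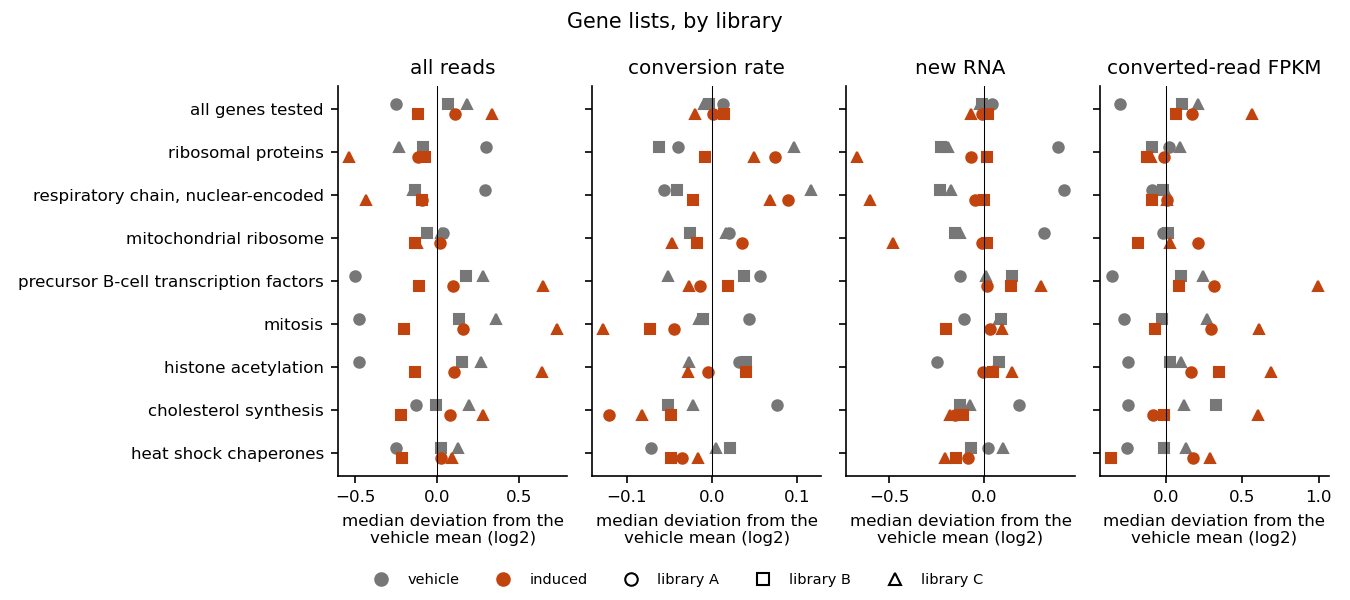
Median over the genes of a list of each library's log2 deviation from the gene's vehicle mean, in 4 measures, for vehicle (grey) and induced (orange) libraries with shape giving the letter. In all reads and new RNA, vehicle A and induced C lie at opposite ends for ribosomal proteins (0.30 and -0.54 in all reads), and in all reads at the ends in the opposite order for the lineage, mitosis and acetylation lists.

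Gene span separated the fold changes in 3 of the 4 measures. Span was taken from GENCODE 29 for 96.9 to 99.0% of the genes tested. Genes were split by span into 3 bins of equal number. In FPKM the shortest bin (median 9.48 kb) had a median fold change of 0.08 and the longest bin (median 108 kb) of 0.41, and the groups were apart and higher for 5.23% and 18.5% of them. In new RNA the medians were -0.13 and 0.08, with 1.02% and 9.07% apart and higher, and in all reads 0.01 and 0.19. In the conversion rate both outer bins lay near 0, at -0.01 and 0.01. Across genes the Spearman correlation of span and fold change was 0.34 in FPKM, 0.39 in new RNA, 0.37 in all reads and 0.07 in conversion, in genes that share 6 libraries. Long genes deviated by library in the order already described: in all reads the longest bin lay at deviations from each gene's mean over the 6 libraries of -0.44, 0.02 and 0.13 in vehicle A, B and C and 0.05, -0.20 and 0.47 in induced A, B and C. Without induced C the correlation was 0.08 in all reads, 0.06 in new RNA and 0.20 in FPKM, and without vehicle A it was 0.23, 0.26 and 0.33. Genes were also split by their conversion rate in the 2 mutant libraries, which are not part of this contrast: in 3 equal bins of that rate the FPKM fold change had medians of 0.11, 0.23 and 0.38, and the conversion fold change, in the other order, 0.03, -0.01 and -0.03.

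**Figure D5:**
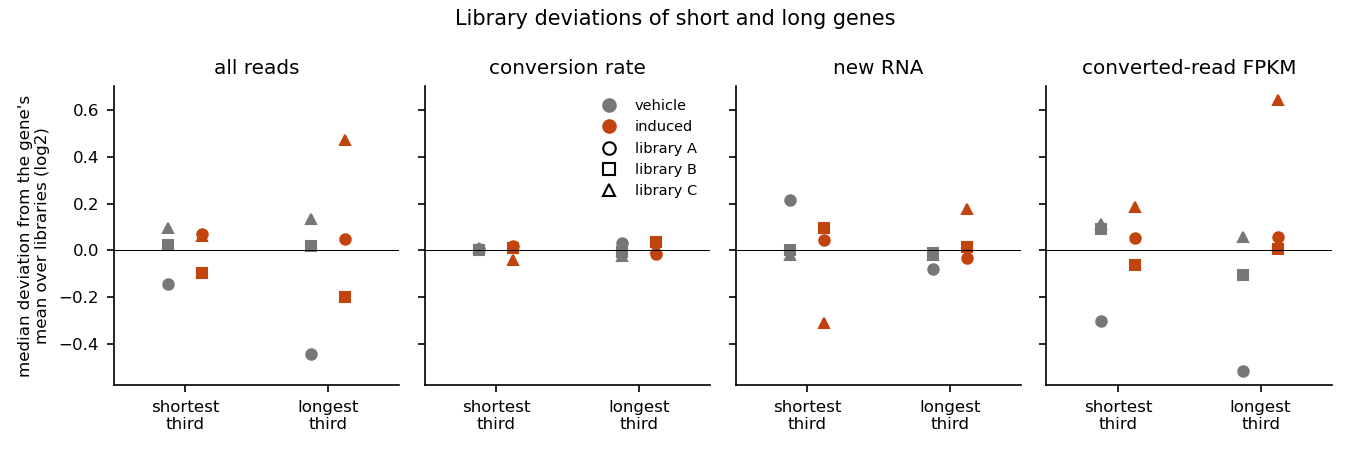
Median log2 deviation of each vehicle (grey) and induced (orange) library from the gene's mean over the 6 libraries, for the shortest and the longest of 3 equal bins of gene span. Vehicle A and induced C are furthest apart for long genes in all reads (-0.44 and 0.47) and in FPKM, and the conversion rate shows no such spread.

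Among the genes with the highest vehicle means in new RNA or FPKM, some overlapped between the groups and some were highest in 1 library. ACTB, beta actin, had 2558, 2699 and 2648 CPM with vehicle and 2677, 2639 and 2295 with doxycycline, and new RNA of 58.6, 105 and 117 against 115, 88.0 and 120, overlapping in both. HSPA8, the constitutive HSP70 chaperone, had 323, 266 and 334 FPKM against 306, 251 and 247 and also overlapped. Another 3 of these genes were apart in all reads, and induced B was the highest library of each. UNC45B, a myosin chaperone gene, had 518, 465 and 632 CPM with vehicle and 737, 2421 and 929 with doxycycline, while its conversion rate was 5.43 to 5.75% and 5.65 to 5.81% and overlapped. PHKB, a phosphorylase kinase subunit gene, had 236, 190 and 278 CPM against 328, 885 and 391, with a conversion rate of 26.5 to 29.3% against 29.4 to 34.8%, overlapping after centring. ANKRD30BL had 497, 527 and 546 CPM against 624, 1098 and 865, at 10.4 to 11.9% and 11.8 to 12% conversion. The upper quartile of conversion over genes was 6.71 to 8.98% in the 6 libraries. Why PHKB and ANKRD30BL lay above it was not tested. The FPKM of UNC45B, PHKB and ANKRD30BL overlapped between the groups, for UNC45B at 653, 390 and 438 against 543, 2078 and 550.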

How the data were processed

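SLAM-seq libraries (TruSeq Stranded mRNA, NextSeq 500, per the labels' protocols) were used as deposited. The first table holds CPM, a signal whose steps give whole reads in 100% of values within 0.1 read, and conversion fractions, both made by the authors per transcript. In rows with 1 read the deposited fraction lay strictly between 0 and 1 in 35.0 to 47.2% of rows, so it was taken to count bases, not reads. The second table holds FPKM of converted reads, per the file headers. The build was hg19 (GRCh37), per the submitters' processing notes; the sources used here name no rule for reads that map more than once. Of 61177 rows, 25396 had no symbol in the file and 24846 of these were named through RefSeq (GRCh38.p14). Pseudogenes and gene spans came from GENCODE 29 (GRCh38) by name.

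Per gene the row with the highest mean over all 8 libraries was kept. log2(value + pseudocount) was fitted with limma 3.58.1 (R 4.3.3), with pseudocounts of 1 (CPM), 0.5 (conversion percent), 0.1 (new RNA) and 1 (FPKM) and minimum means of 1 CPM, 5 CPM, 0.2 and 1 FPKM. Library medians were set to 0 for conversion and new RNA. All 8 libraries entered the minimum means and shared the estimate of spread, and p-values were adjusted by Benjamini-Hochberg over all genes tested. Whole-library values used exact two-sided permutation tests. Recovered reads were also tested with edgeR 4.0.16 and DESeq2 1.42.0. Scripts were tested on simulated data. Replicate letters did not pair the libraries. Named genes were HMGN1; per measure any gene past 0.05 with groups apart, or otherwise the 5 smallest p each way; concordant and discordant genes by mean change; up to 3 members of a list by p in new RNA and up to 3 in FPKM; and the 5 genes with the highest vehicle mean in new RNA and in FPKM. Part of these are printed, and some are not reported here. MPP1, FAM174B and ACTN1, hosts of HMGN1 pseudogenes, fall outside that rule and were chosen after their values were seen. The members and lists were chosen with earlier results of these data known. Alternatives were other pseudocounts, filters, centring, transcript rows, tools, the replicate block, the 6 libraries alone and each library left out; modelling the spread as a trend was added after seeing the data.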

Additional observations from a re-analysis of the deposited data

How the results depend on the processing

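Over 884 alternative settings of 65 gene and measure pairs, 873 kept direction and side of the threshold. New RNA without centring reversed BPNT1 (0.103) and MRPL43 (0.0785) and took the C1orf14 adjusted p to 0.0534 by limma at a fold change of 4.33. HMGN1 in FPKM reversed to -0.00136 with medians centred. HMGN1 in new RNA passed with the replicate block (2.04), on the 6 libraries (2.04), with pseudocount 0.5 (1.95), with no filter (2.12) and with the spread as a trend (2.04). Called genes in new RNA numbered 3 with the replicate block, 2 on the 6 libraries, 2 with pseudocount 0.5, 8 with no filter, 0 without centring and 2 with the trend, against 1. In all reads edgeR with either scaling and DESeq2 called 2 each. In conversion, leaving out 1 library gave 0 to 2 calls, the 2 without induced C. PGK1 (1.23) and TMEM131 (1.29) passed in new RNA with no filter. The cause of these differences was not tested. Deviations from the gene's group mean correlated across genes between same-letter libraries at 0.29 (A), -0.36 (B) and 0.65 (C) in all reads. The letters were therefore not treated as pairs. With 3 libraries a group, exact tests could not go below 0.1.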
